A study of Mus musculus with 28 samples.

Results

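Bulk RNA-seq of control pancreas was compared with that of control liver, a comparison that held 4 of the 28 samples of the series. The samples were chosen by their titles, and they are the livers and the pancreases of the same 2 mice, numbered 45 and 168, so that each tissue had 2 samples. The series followed mice in which human APOBEC3B (A3B), a cytosine deaminase, was fused to turboGFP and placed behind a tetracycline operator in the ColA1 locus (TetO-A3B-tGFP). The study's list of animals gives both controls the TetO-A3B-tGFP allele without CAGs-rtTA, the constitutive driver that switches it on with doxycycline. The sample labels give A3B alone for the 2 control livers and A3B + CAGS-rtTA for the 2 control pancreases of the same mice, and this disagreement could not be settled here. The labels give both mice 625 ppm doxycycline in their food for 10 days, and the study's methods also describe control littermates as fed doxycycline, although 1 legend describes the 2 controls as off it. Doxycycline feeding in the study began at 4 weeks of age, and no label gives the age or strain of these mice. The embryonic stem cells of the line carried another driver, M2-rtTA at Rosa26, and by the study's methods it was bred out of the line. The mice were 2 separate animals, and all RNA came from whole organ, so that fewer cells of a type and less RNA per cell cannot be told apart in any value below.

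The exocrine pancreas is built of acinar cells, which make digestive enzymes as inactive precursors, pack them into zymogen granules and release them into ducts that add bicarbonate. Scattered among them are the islets, whose endocrine cells secrete insulin, glucagon, somatostatin and pancreatic polypeptide into the blood. The liver is mostly hepatocytes, which secrete the plasma proteins and lipoproteins, make bile acids and urea, hold glycogen, release glucose and clear drugs through cytochrome P450 enzymes. Both organs arise from neighbouring foregut endoderm and share several transcription factors.

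The 4 libraries held between 87288183 and 118976013 estimated read counts, and the 2 tissues spread them very differently. In pancreas 45 and pancreas 168, 62.4% and 59.7% of the counts fell on the leading 10 genes, against 24.5% and 22.2% in liver 45 and liver 168. The 6 and 7 most abundant genes of the pancreases held as many counts as all their other genes together, which took 120 and 113 genes in the livers. Genes above 1 TPM (a level scaled by transcript length and library) numbered 7739 in pancreas 45, 11214 in pancreas 168, 11598 in liver 45 and 11103 in liver 168. With so much of each pancreas library in a few genes, a fold change depends on the scaling. The folds below are log2 of pancreas over liver on edgeR's TMM scale, which set the median gene at 0.01, while scaling by library totals set it at -1.01 and upper quartile scaling at 0.64. A gene can therefore have a lower TPM in pancreas and a fold near 0 on this scale. In what follows, pairs of values give mouse 45 first and mouse 168 second.

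By edgeR's quasi-likelihood test with Benjamini-Hochberg adjustment, 3022 of 16345 genes (18.5%) were higher in pancreas and 3708 (22.7%) were higher in liver at an adjusted p under 0.05, together 41.2%. Of the genes called, 222 higher in pancreas and 658 higher in liver averaged at least 100 TPM in the higher tissue. A total of 130 genes higher in pancreas had no count in either liver, and 152 genes higher in liver had none in either pancreas. Scaling by library totals called 1226 and 4826 genes, upper quartile scaling 4720 and 2218, and 1226 and 2205 genes were called in the same direction by TMM, both of these scalings and DESeq2. No gene called under TMM was called in the opposite direction under library totals or the upper quartile. With the animal as a block, 1824 (11.2%) and 2758 (16.9%) genes were called, of which 1801 and 2698 were also called without it. Leaving out liver 45 left 494 and 965 calls, and leaving out liver 168 left 391 and 977, and of the genes chosen by the rule for naming 127 and 140 lost their call. Without pancreas 45 there were 4218 and 4447 calls, and without pancreas 168 there were 3502 and 4078.

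The digestive proteases were the main product of the pancreas. Their 17 genes summed to 405433 and 377438 TPM in the pancreases, or 40.5% and 37.7% of all transcripts, and to 129.7 and 81.3 TPM in the livers. Higher levels in pancreas passed the test for 16 of the 17, against 18.5% of all genes, with a median log2 fold of 14.63. The elastase Cela1 (chromosome 15, bases 100674421 to 100687921 of GRCm38) was the most abundant transcript of the pancreas, at 156927 and 135096 TPM. In the livers Cela1 was at 64.0 and 78.0 TPM, more than any other digestive protease there. Its log2 fold was 13.22 ± 3.54 (SE, n = 2 per tissue; edgeR adjusted p = 0.0390), with an adjusted p of 0.164 when the animal was a block. Cela2a, a second elastase, was at 78195 and 84878 TPM in pancreas and at 14.6 and 1.31 TPM in liver, a log2 fold of 14.97. Trypsinogens came next, with Prss2 at 31430 and 36500 TPM and Try4 at 29758 and 12802 TPM. The chymotrypsinogen Ctrb1 reached 25751 and 24605 TPM in pancreas, and in liver it was at 18.8 TPM in mouse 45 and at 0 in mouse 168. Procarboxypeptidase Cpa1 was the only protease that missed the threshold, at 6700 and 7819 TPM against 4.47 and 0 TPM (adjusted p = 0.0511). For Try10, a trypsinogen at 1376 and 817 TPM in pancreas, the livers gave 1 count in all, a ratio of 322012 with a 95% counting interval of 57795 to 12718808. With the animal as a block 9 of the 17 passed, and the adjusted p was 0.0966 for Cela2a, 0.0722 for Prss2, 0.0520 for Try4 and 0.0946 for Ctrb1. Without liver 45 there were 4 and without liver 168 there were 2. Trypsinogens share long identical stretches, so the split of reads among Prss and Try genes is uncertain.

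**Figure D1:**
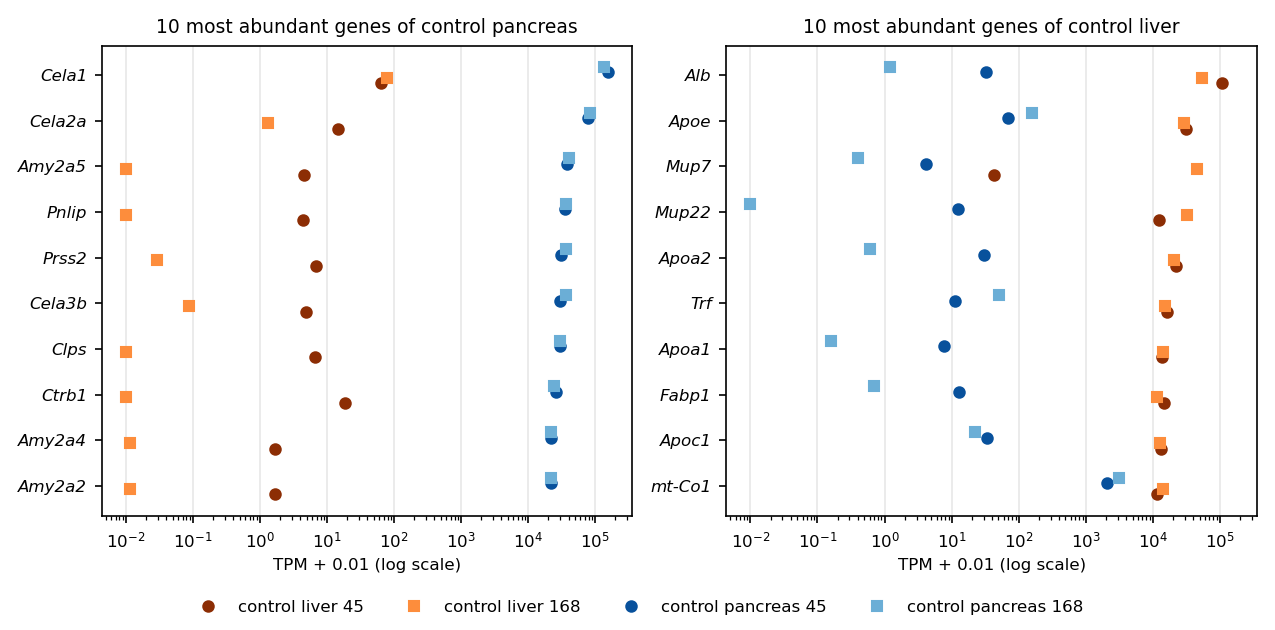
TPM + 0.01 on a log axis of the 10 most abundant genes of control pancreas (left) and of control liver (right), with 1 point for each of the 4 samples. Pancreas and liver points are separated in every row, and Cela1 is at 64.0 and 78.0 TPM in the livers, while Pnlip and Amy2a5 are at 0 in liver 168.

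Lipases, amylase and ribonuclease formed the next block, with 127238 and 129856 TPM in the pancreases and 208 and 154 TPM in the livers, most of the latter from Amy1. Of 10 genes tested, 9 were higher in pancreas, with a median log2 fold of 14.69. Pancreatic amylase Amy2a5 was at 37843 and 41311 TPM in pancreas and at 4.48 and 0 TPM in liver, and triglyceride lipase Pnlip was at 35134 and 36336 TPM against 4.37 and 0. Colipase, Clps, which anchors that lipase to fat droplets, was at 30150 and 29927 TPM against 6.67 and 0. Amy2a2, Amy2a3 and Amy2a4 were not members of this list, and the sums and counts given for it leave them out. Each received exactly the same 22061 and 21718 TPM, since the copies cannot be told apart by the reads, and these values are a split of a common total. The exception was Amy1, the salivary and liver amylase, at 184 and 154 TPM in liver and 45.0 and 52.4 TPM in pancreas, with a log2 fold of -0.80 (adjusted p = 0.160), or -1.95 under library totals (adjusted p = 0.0139). Within Amy1 a transcript with its first base at 113574762 on chromosome 3 made 97.5% and 96.8% of the liver TPM, and 51.3% and 61.7% in pancreas. A shorter model with its first base at 113562018 made 0.415% and 1.47% in liver and 46.4% and 36.1% in pancreas. Whether reads of the pancreatic copies were assigned to this model was not tested. There were 4 calls in the list with the animal as a block. The blocked adjusted p was 0.0929 for Amy2a5, 0.0541 for Pnlip and 0.0639 for Clps. Outside the list it was 0.0664 for each of Amy2a2, Amy2a3 and Amy2a4.

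Proteins that pack and release the zymogen granule were higher in pancreas for 14 of 16 genes, with a median log2 fold of 12.09. Serpini2, a pancreas serpin (chromosome 3, bases 75242370 to 75270078), was at 476 and 632 TPM in pancreas and had no count in either liver, which puts it at least 96857-fold higher. Gp2, the main protein of the granule membrane, was at 89.5 and 206 TPM and at least 37265-fold higher, with no whole count in the livers. Aqp12, an acinar aquaporin, was at 50.5 and 48.6 TPM and at least 6425-fold higher. Spink1, which blocks trypsin that is activated too early, was at 5088 and 3453 TPM against 0.158 and 0.0881, a log2 fold of 16.76 ± 1.77 (adjusted p = 0.00510). Cckar, the receptor through which cholecystokinin triggers secretion, was at 52.9 and 48.5 TPM against 0.106 and 0. The muscarinic receptor Chrm3 was at 0.647 and 0.714 TPM against 0.0229 and 0.146. Exocytosis genes that many secretory cells use differed less, with Rab3d at a log2 fold of 3.30 and Stx3 at 1.59. Vamp8 was at 20.9 and 41.2 TPM in pancreas and 79.4 and 79.2 TPM in liver (log2 fold 0.12, adjusted p = 0.697). With the block there were 13 calls, Chrm3 missing at an adjusted p of 0.0622, with 8 without liver 45 and 7 without liver 168. Outside the lists, Tmed11 and 1810018F18Rik, picked for the size of their change, were at 144 and 160.0 TPM and at 124 and 83.6 TPM in pancreas with no count in liver, at least 12820-fold and 13346-fold higher.

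Promoter sequences of these genes were read from RefSeq (GRCm38.p6), as 250 bases before and 50 after each start. An entry was found for 34 of the 45 digestive enzyme and granule genes, with 35 promoters in all. The E-box CACCTG, a form bound by basic helix-loop-helix factors such as the acinar PTF1 complex, was searched on both strands. It was in 18 of these 35 promoters (51.4%), and in 20.2% of all 32851 promoters. Of the promoters of genes called higher in pancreas at 100 TPM or more, 21.8% held it. The TATA box TATAAA was in 40.0% of the 35 and in 13.6% of all, and the E-box CAGCTG was in 20.0% and 16.3%. The box TTTCCC, taken here for the RBPJ part of the PTF1 site, was in 34.3% and 25.2%. The windows that follow are 30 bases, 5′ to 3′ on the strand of the gene, with these matches in capitals, and they are shown because they belong to the most abundant acinar gene and to genes with no count in liver.
Cela1, E-box and TTTCCC box: tttcatgtCACCTGcgctTTTCCCtgcctt
Cela1, TATA box: aagaggcgTATAAAgagggctcggttcatg
Prss1, the same boxes on the other strand: ctgggaagGGGAAAcccaCAGGTGtgcttg
Serpini2, E-box: acagtgcaCACCTGctatggttgtggaata
The first lies at chr15:100688008-100688037, minus strand, the second at chr15:100687926-100687955, minus strand, the third at chr6:41458816-41458845, plus strand, and the last at chr3:75270166-75270195, minus strand. Counting the start base as 0, the Cela1 E-box began at -109, its TTTCCC box at -99 and its TATA box at -27, and the Serpini2 E-box also began at -109. The spacing of Cela1, 4 bases between the boxes, was searched after it had been seen, and it occurred in 5 of 32851 promoters (0.0152%), 2 of which belong to this set, Cela1 and Prss1. A match is letters in a window and not a measured binding site.

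The acinar transcription factors split between factors near 0 in liver and factors present in both organs. Ptf1a, the factor that specifies acinar cells, averaged 14.4 TPM in the pancreases with 1 count in the livers, a ratio of 8146 (95% counting interval 1462 to 321755). Its partner Rbpjl was at 90.0 and 87.6 TPM against 0.0332 and 0.00535, a log2 fold of 13.18 ± 1.44 (adjusted p = 0.00539). Bhlha15, also called Mist1, which enlarges the secretory apparatus, was at 31.5 and 24.3 TPM against 0.0706 and 0.149. Mecom was the fourth factor to pass, at 0.986 and 2.48 TPM against 0.447 and 0.183. The other 6 factors did not pass. Among them Nr5a2, a nuclear receptor of both organs, was at 2.22 and 6.64 TPM in pancreas and 25.8 and 21.1 TPM in liver, with a log2 fold of -0.62 (adjusted p = 0.121). Xbp1, which drives the secretory stress program, was at 53.4 and 85.9 TPM in pancreas and 105 and 98.9 TPM in liver (log2 fold 0.69, adjusted p = 0.197). Nr5a2 differed in its transcripts, since the model starting at base 136960380 of chromosome 1 held 42.5% and 30.2% of the liver TPM and 0% and 0.303% in pancreas. The model starting at base 136960448, upstream on the minus strand, held 35.8% and 46.4% in liver and 95.6% and 88.8% in pancreas. Without either liver in turn 3 factors passed, and without pancreas 168 there were 6 higher in pancreas and 2 higher in liver.

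Reg proteins and other acinar secreted factors were higher in pancreas for 8 of 10 genes, at a median log2 fold of 11.42. Reg1 was at 13416 and 12958 TPM in pancreas against 1.05 and 0.117 in liver, and the trefoil factor Tff2 was at 9324 and 8277 TPM against 0.463 and 0.0299. The antimicrobial lectins differed between the mice, with Reg3b at 35.1 TPM in pancreas 45 and 1013 TPM in pancreas 168, and Reg3g at 3.85 and 165 TPM. Reg2 followed the same order, at 66.4 and 634 TPM. All of these values were far above the livers, where Reg3b was at 0.470 and 0 TPM. Clu, a secreted chaperone, was at 132 TPM in each pancreas and 968 and 1002 TPM in the livers (log2 fold -1.31, adjusted p = 0.175). With the animal as a block Reg3b had an adjusted p of 0.0623. Without liver 45 only 2 genes of this list passed, and without liver 168 only 1.

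Islet genes were detected in both pancreases and were higher there than in liver. Of 21 hormone and granule genes tested, 20 were higher in pancreas, at a median log2 fold of 9.30, and the same 20 in number passed with the animal as a block. Ins2 was at 2535 and 2609 TPM and Ins1 at 467 and 429.7 TPM, against at most 0.548 TPM in liver. Glucagon, Gcg, was at 101 and 102 TPM with no count in either liver, at least 11901-fold higher. Islet amyloid polypeptide, Iapp (chromosome 6, bases 142298423 to 142303961), was at 267 and 311 TPM and at least 27372-fold higher. Somatostatin, Sst, averaged 25.7 TPM, with no count in liver, and pancreatic polypeptide, Ppy, was at 20.4 and 23.6 TPM. In TPM the 2 pancreases were close for these hormones except Sst, but not for all islet genes, since the beta cell zinc transporter Slc30a8 was at 0.740 and 1.83 TPM and the factor Isl1 at 0.430 and 1.80 TPM. On the TMM scale the 15 islet cell markers were lower in pancreas 168 than in pancreas 45 by a median log2 difference of -1.04. The 20 acinar markers had a similar one, -0.98, so that this shift was not particular to islets. In TPM the islet markers summed to 3442 and 3523. The hormone and granule gene that was higher in liver was Ttr, transthyretin, which islets and hepatocytes both make. It was at 19.9 and 16.6 TPM in pancreas and 7530 and 7935 TPM in liver. Among islet transcription factors, 9 of 10 were higher in pancreas, all at low TPM. Pdx1, needed for beta cells and for pancreas formation, was at 0.699 and 1.10 TPM and Nkx2-2 at 3.28 and 2.16 TPM, both with no count in the livers, the latter at least 404-fold higher. Without liver 45 or without liver 168, 17 hormone and granule genes and 3 of the factors were higher in pancreas.

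Ductal genes were higher in pancreas for 11 of 18, at a median log2 fold of 2.91. The counts depended on the scaling. Under library totals 7 were higher in pancreas and 4 in liver, at a median of 1.80. With limma on log2(TPM + 1) there were 3 and 5, at a median of 0.82. Muc1, an apical mucin, was at 52.7 and 48.8 TPM in pancreas and 0.681 and 0.330 TPM in liver, a log2 fold of 7.22 ± 0.56 (adjusted p = 0.00355). The keratin Krt19, of pancreatic and bile ducts alike, was at 5.28 and 28.1 TPM in pancreas and 1.70 and 0.508 TPM in liver. Cftr, the chloride channel of bicarbonate secretion, was at 0.132 and 0.536 TPM against 0.0748 and 0.00595. The water channel Aqp1 and the bicarbonate cotransporter Slc4a4 were higher in liver, with log2 folds of -2.19 and -4.87. The keratins Krt8 and Krt18, which acinar cells and hepatocytes also make, did not pass. Without liver 45 the count higher in pancreas was 4 and without liver 168 it was 2.

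**Figure D2:**
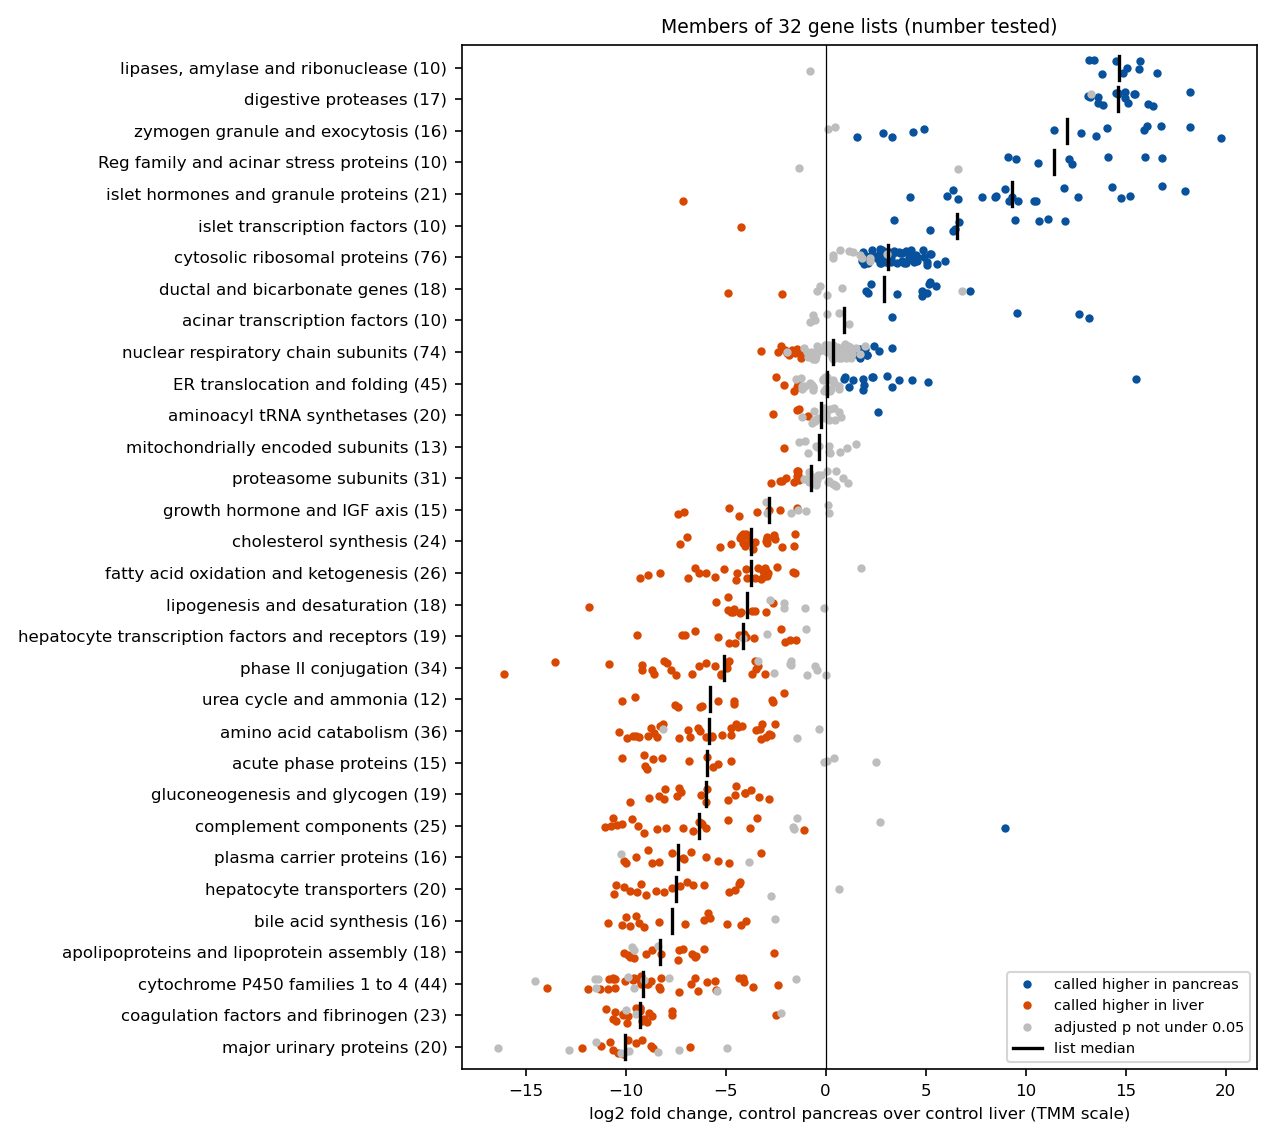
Fitted log2 fold change of each tested member of 32 gene lists, control pancreas over control liver on the TMM scale, with a black bar at each list median and colours for the edgeR call. Enzyme and granule lists sit furthest to the right and P450, urinary protein and coagulation lists furthest to the left, while acinar factors, endoplasmic reticulum, respiratory chain and proteasome lists straddle 0; fitted folds of genes with 0 counts in a tissue depend on the prior count.

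On the liver side, plasma carrier proteins summed to 167359 and 106790 TPM in the livers and to 104 and 127 TPM in the pancreases. Of 16 tested, 14 were higher in liver, against 22.7% of all genes, at a median log2 fold of -7.39. Albumin, Alb (chromosome 5, bases 90460897 to 90476602), was the most abundant liver transcript at 107806 and 54669 TPM. In the pancreases Alb was at 32.7 and 1.19 TPM, so that the difference between the pancreases was larger than that between the livers. Its log2 fold of -10.23 ± 3.47 did not pass (adjusted p = 0.0711, and 0.152 with the animal as a block). Without pancreas 168 the adjusted p of Alb was 0.0226, and without pancreas 45 it was 0.00509. Transferrin, Trf, was at 16473 and 15245 TPM in liver against 11.3 and 50.1 (log2 fold -8.31, adjusted p = 0.0204, block 0.0813). Fetuin A, Ahsg, was at 14279 and 10278 TPM against 6.33 and 0.341 (block adjusted p = 0.0583). The corticosteroid carrier Serpina6 was at 459.9 and 225 TPM against 0.106 and 0.114, a log2 fold of -10.07 ± 0.74 (adjusted p = 0.00345). With the block 10 of 16 passed, and without liver 45 or without liver 168 only 3.

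Apolipoproteins and lipoprotein assembly genes followed, with 97186 and 90853 TPM in liver and 162 and 199 TPM in pancreas. Of 18 tested, 15 were higher in liver, at a median log2 fold of -8.29. Apoe, a ligand of lipoprotein receptors, was at 31396 and 29614 TPM in liver and, at 68.7 and 160.2 TPM, was also the member highest in pancreas. Apoa1, the protein of high density lipoprotein, was at 13551 and 14386 TPM in liver, and in pancreas at 7.81 TPM in mouse 45 and 0.147 TPM in mouse 168. Apoa2 showed the same unequal pancreases, at 30.9 and 0.591 TPM, and did not pass (adjusted p = 0.0569). Mttp, which loads lipid onto apolipoprotein B, was at 132 and 86.9 TPM against 0.378 and 0.569 (adjusted p = 0.00345). With the block there were 10 calls, without Apoe (adjusted p = 0.0952) and Apoa1 (0.0709), with 3 without liver 45 and 4 without liver 168.

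Coagulation factors were higher in liver for 20 of 23 genes, at a median log2 fold of -9.29. The list summed to 20988 and 17068 TPM in liver and to 11.6 and 5.92 TPM in pancreas. Prothrombin, F2, was at 1686 and 1266 TPM against 0.727 and 0.962, and F10 at 419.7 and 342 TPM against 0.191 and 0.224. Fibrinogen chains Fga and Fgg were at 3663 and 3274 TPM and at 2806 and 2591 TPM in liver but missed the threshold, with adjusted p of 0.0687 and 0.0677, as pancreas 45 held 1.69 and 1.90 TPM and pancreas 168 none. F8, which endothelium makes, was at 2.98 and 2.03 TPM in liver and 0.0214 and 0.478 TPM in pancreas (adjusted p = 0.139). Of the complement genes 20 of 25 were higher in liver, at a median log2 fold of -6.34. C3, the hub of the cascade, was at 3597 and 2459 TPM against 3.51 and 34.8 (block adjusted p = 0.0892). The member higher in pancreas was Cfd, the protease adipsin, at 9.63 and 258 TPM against 1.05 and 0.0701, and it is itself among the adipocyte markers given below (adjusted p = 0.0254, block 0.0739). With only 1 liver in the fit, whichever it was, 10 coagulation and 9 complement genes were higher in liver, and Cfd was not called without any 1 of the 4 libraries.

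Acute phase proteins were higher in liver for 11 of 15. Serum amyloid Saa4 was at 218 and 274 TPM against 0.114 and 0.00666, and the iron hormone Hamp at 3076 and 5624 TPM against 4.99 and 0.516. Its near copy Hamp2 behaved differently, at 1174 TPM in liver 45, 73.8 TPM in liver 168 and 171 and 169 TPM in the pancreases (log2 fold -0.06, adjusted p = 0.970). Saa1 was at 344 TPM in pancreas 168, above both livers (24.4 and 87.6 TPM), and at 0.235 TPM in pancreas 45. Without either liver in turn 5 members of this list passed.

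Major urinary proteins, pheromone carriers that the liver secretes for excretion in urine, differed widely between the 2 mice. Their sum was 23087 TPM in liver 45 and 138530 TPM in liver 168, and 40.4 and 2.29 TPM in the pancreases. Of 20 tested, 12 were higher in liver, at a median log2 fold of -10.03, or -9.32 when genes with no count in pancreas were set at their bound. Mup7 was at 42.4 TPM in liver 45 and 46001 TPM in liver 168, and Mup20 at 165 and 5790 TPM. Mup18 went the other way, at 3419 and 2212 TPM. Mup7 was at 4.19 TPM in pancreas 45, which is 9.88% of its level in the liver of that mouse, while Alb in the same pancreas was at 0.0303% of its liver level. For every 1000 TPM of Alb there were 0.393 TPM of Mup7 in liver 45 and 128 in pancreas 45. Other hepatocyte transcripts were closer, from 45.0 and 69.6 for Cyp2e1, 126 and 239 for Apoa1 and 56.5 and 106 for Serpina1a to 14.4 and 40.6 for Fgb (adjusted p = 0.0485, block 0.0668), 117 and 385 for Mup22, 31.5 and 122 for Hpx (adjusted p = 0.0421, block 0.0578) and 208 and 944 for Apoa2, all higher per Alb in pancreas 45. The source of these transcripts was not tested. The Mup genes are near-identical copies and the split among them is uncertain. With the animal as a block 6 passed, Mup20 not among them (adjusted p = 0.0439, block 0.161). Without liver 45 there were 4 and without liver 168 only 1.

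Nitrogen metabolism was higher in liver throughout its list: all 12 urea cycle and ammonia genes tested passed, at a median log2 fold of -5.77. Cps1, the first step of the cycle, was at 846 and 625 TPM in liver and 0.309 and 0.0217 TPM in pancreas. Ass1 was the member highest in liver, at 3255 and 2846 TPM against 6.80 and 6.70. Glul, glutamine synthetase, had one of the smaller differences, at 627 and 393 TPM against 28.8 and 25.3 (log2 fold -2.70, block adjusted p = 0.0664). Of 36 amino acid catabolism genes, 33 were higher in liver, at a median log2 fold of -5.83. Hpd of tyrosine breakdown was at 2463 and 1773 TPM against 1.93 and 0.792, and Tdo2 of tryptophan breakdown at 659 and 1190 TPM against 0.831 and 0.0966. Cbs, of transsulfuration, kept 46.1 and 47.7 TPM in pancreas beside 367 and 279 TPM in liver and did not pass (log2 fold -1.43, adjusted p = 0.0967). Without liver 45 there were 6 and 11 calls in the 2 lists, and without liver 168 there were 5 and 10.

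All 19 gluconeogenesis and glycogen genes were higher in liver, at a median log2 fold of -6.00, and all 19 also passed with the animal as a block. Pck1, the committed step of gluconeogenesis, was at 2353 and 1253 TPM against 1.97 and 7.41. The glucose transporter Slc2a2, which beta cells also use, was at 208 and 121 TPM in liver and 0.530 and 0.955 TPM in pancreas. In fits with a single liver 11 passed. Fatty acid oxidation and ketogenesis genes were higher in liver for 25 of 26, at a median log2 fold of -3.75. Acaa2, a thiolase, was at 956 and 868 TPM against 11.8 and 15.9. Fgf21, a hormone of liver and acinar cells, was at 2.40 and 2.97 TPM in liver and 3.81 and 1.54 TPM in pancreas (log2 fold 1.76, adjusted p = 0.163). Without liver 45 there were 15 calls in this list and without liver 168 there were 14.

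Lipogenesis genes passed for 13 of 18, at a median log2 fold of -3.95, and the 2 livers differed. Scd1 was at 3160 TPM in liver 45 and 1155 TPM in liver 168, Fasn at 223 and 49.7 TPM and Thrsp at 881 and 167 TPM. Scd1 and Thrsp had adjusted p of 0.0411 and 0.0434, and of 0.109 and 0.122 with the animal as a block. Fasn was at 5.83 and 18.4 TPM in pancreas and did not pass (adjusted p = 0.0695). Elovl2, which lengthens polyunsaturated fatty acids, had the largest fold of the list, at 285 and 143 TPM against 0.0323 and 0.00322. All 24 cholesterol synthesis genes were higher in liver, at a median log2 fold of -3.71, and 23 passed with the block. Fdps, which makes farnesyl diphosphate for this pathway, was at 329.6 and 177 TPM in liver against 7.25 and 5.16. Cholesterol synthesis had 17 calls without liver 45 and 20 without liver 168, and lipogenesis had 6 and 8.

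Bile acid synthesis genes were higher in liver for 15 of 16, at a median log2 fold of -7.69. Cyp7a1, the rate-limiting enzyme, was at 13.6 and 34.0 TPM in liver with 3 counts in the pancreases, a ratio of 2053 (95% counting interval 702 to 9955). Cyp7b1 of the alternative pathway was at 15.7 TPM in liver 45 and 167 TPM in liver 168, against 0.515 and 0.456 in pancreas (adjusted p = 0.0296, block 0.0880). Hepatocyte transporters passed for 18 of 20, at a median log2 fold of -7.47. The bile acid importer Slc10a1 was at 672 and 429 TPM against 0.434 and 0.111, and the bile salt export pump Abcb11 at 200.4 and 123 TPM against 0.216 and 0. The amino acid carrier Slc38a3 was the transporter highest in pancreas, at 17.9 and 32.3 TPM beside 1596 and 803 TPM in liver. Without either liver in turn 9 bile acid and 13 transporter genes passed.

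Cytochrome P450 genes of families 1 to 4 were higher in liver for 34 of 44, at a median log2 fold of -9.15, and 38 passed with the animal as a block. Cyp2e1 was the most abundant, at 4846 and 6007 TPM in liver and 2.28 and 30.9 TPM in pancreas. Cyp1a2, which clears caffeine, was at 652 and 644 TPM against 0.0639 and 0, a log2 fold of -13.91 ± 1.69 (adjusted p = 0.00658). Among the 10 that did not pass, several differed widely between the livers. Cyp2b9 was at 367 TPM in liver 45 and 0.937 TPM in liver 168, with adjusted p of 0.0567 without and 0.00645 with the block, and Cyp3a41a at 1346 and 0.0775 TPM (0.159 and 0.0144). Cyp4a12a was the reverse, at 0.559 and 303 TPM, and passed neither fit (0.0656 and 0.301). Without liver 45 there were 19 calls in the list and without liver 168 there were 17. Conjugating enzymes passed for 25 of 34, at a median log2 fold of -5.09. Mgst1 was at 3371 and 5054 TPM against 20.7 and 75.0, and Ugt1a9 at 53.7 and 93.1 TPM with no count in pancreas, at least 3296-fold higher in liver. Gstm2 had a log2 fold of 0.00 (adjusted p = 0.994), at 124 and 110.2 TPM in liver and 40.1 and 42.0 TPM in pancreas. When 1 liver was left out 17 conjugating enzymes passed. Outside the lists, the steroid dehydrogenase Hsd17b6 (chromosome 10, bases 127990936 to 128007611) was at 429 and 318 TPM in liver with 1 count in pancreas, a ratio of 26757 (95% counting interval 4802 to 1056858).

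Hepatocyte transcription factors and nuclear receptors were higher in liver for 16 of 19, at a median log2 fold of -4.14. Hnf4a (chromosome 2, bases 163506808 to 163572910), the main regulator of hepatocyte identity, was at 234 and 182 TPM in liver and 1.29 and 6.94 TPM in pancreas, a log2 fold of -4.85 ± 0.61 (adjusted p = 0.00700). Creb3l3, a membrane-bound factor of liver and gut, had the largest fold of the list, at 218 and 192 TPM against 0.0605 and 0.183. Foxa2, common to both organs, was at 14.5 and 22.8 TPM in liver and 2.22 and 4.92 TPM in pancreas (log2 fold -0.97, adjusted p = 0.0663). Without either liver in turn 11 passed. The growth hormone and IGF axis passed for 8 of 15, with Igf1 at 715 and 557 TPM against 22.6 and 24.2, and had 3 calls without liver 45 and 4 without liver 168.

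Hnf4a is read from a proximal promoter in liver and a distal one known from gut and islets. A transcript from the distal start, base 163506808, was at 0.736 and 0.397 TPM in liver and 0.107 and 1.97 TPM in pancreas, or 0.315% and 0.218% of the gene in liver and 8.33% and 28.4% in pancreas. The transcripts starting at bases 163547187 and 163547188, the proximal start, made up nearly all of the liver signal, at 53.8 and 55.3 TPM and at 176 and 124 TPM. In pancreas 168 the proximal pair held 4.02 and 0.867 TPM, in pancreas 45 0.129 and 1.05 TPM. The shares in pancreas rest on levels under 5 TPM, and the 2 pancreases did not match each other. The letters CAAAGT, part of the sequence that HNF4 binds, were searched on both strands in the RefSeq promoters of plasma carriers, apolipoproteins and coagulation factors, with 46 of 57 genes matched. They were in 23.6% of these 55 promoters, in 22.9% of the 35 promoters of digestive enzymes and zymogen granule proteins, and in 14.4% of all. Genes called higher in liver at 100 TPM or more held them in 19.6% of promoters and those called higher in pancreas in 11.2%.

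Several metabolic steps are run by different genes in the 2 tissues, and 13 pairs were compared, of which Gnmt with Gatm holds different reactions of glycine and the others forms of a common step. In 7 pairs the tissues called opposite members. Glucose 6-phosphatase was G6pc in liver, at 149 and 188 TPM against 0.307 and 0.0520, and the islet form G6pc2 in pancreas, at 4.42 and 6.88 TPM against 0.140 and 0.0605. Fructose bisphosphatase was Fbp1 in liver (log2 fold -9.76) and Fbp2 in pancreas (5.65), and triglyceride lipase was Lipc in liver (-7.33) and Pnlip in pancreas (15.67). These 3 pairs and the pair of Gnmt (-3.20) and Gatm (5.12), which use glycine for methyl disposal and creatine synthesis, kept their calls under library totals, and with the animal as a block all but Pnlip (adjusted p = 0.0541) and Gnmt (0.0649) did so. The second members Pkm (2.02), Gys1 (2.03) and Pygb (1.19) were higher in pancreas on the TMM scale but not called under library totals, where the log2 fold was 0.97 for Gys1 and 0.14 for Pygb. Their partners Pklr, Gys2 and Pygl were higher in liver.

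In 3 further pairs the liver form was higher in liver and its partner was not called: Mat1a with Mat2a, Cpt1a with Cpt1b, and Fabp1 with Fabp5. The partners depended on the scaling, as Mat2a was called higher in pancreas under the upper quartile (adjusted p = 0.0156) and Fabp5 higher in liver under library totals (log2 fold -2.02, adjusted p = 0.0214). Fabp1, the fatty acid carrier of liver, was at 14947 and 11456 TPM against 12.8 and 0.687, while Fabp5 was at 164 and 78.8 TPM in liver and 14.3 and 30.6 TPM in pancreas. In the other 3 pairs the pancreas form was higher and its partner was not called, as for Pdia2 (chromosome 17, bases 26195999 to 26199087), the pancreas protein disulfide isomerase. Pdia2 was at 4540 and 3478 TPM in pancreas against 0.523 and 0.0490, a log2 fold of 15.51 ± 2.27 (adjusted p = 0.00941), while the general isomerase P4hb was at 499.5 and 479 TPM in pancreas and 765 and 560.1 TPM in liver (log2 fold 0.30, adjusted p = 0.758). Ero1lb, the oxidase that recharges these isomerases, passed at 2.34 while Ero1l did not, and Amy2a5 passed while Amy1 did not. Under library totals Ero1lb did not pass (log2 fold 1.18, adjusted p = 0.0782) and Amy1 was higher in liver (-1.95, adjusted p = 0.0139).

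**Figure D3:**
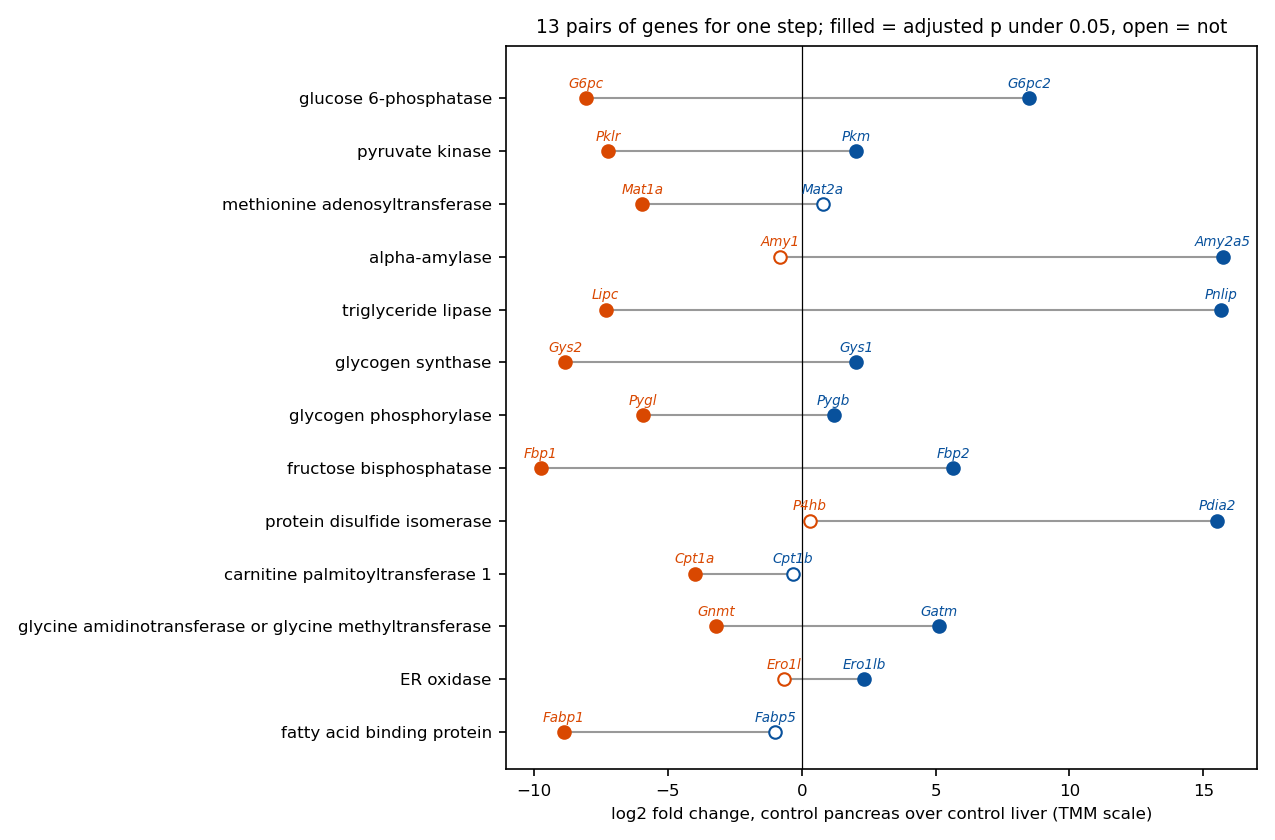
Log2 fold change, control pancreas over control liver on the TMM scale, for both genes of 13 steps, with filled symbols for adjusted p under 0.05. The pairs of glucose 6-phosphatase, fructose bisphosphatase and triglyceride lipase have members far to either side of 0, and Mat2a and P4hb are open symbols near 0.

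Machinery common to all cells also differed. Cytosolic ribosomal protein genes were higher in pancreas for 66 of 76 and higher in liver for none, at a median log2 fold of 3.13. They summed to 142724 and 125388 TPM in pancreas, 14.3% and 12.5% of all transcripts, and to 28430 and 31485 TPM in liver, 2.84% and 3.15%. Rpl13a was at 11836 and 10363 TPM against 803 and 999, and Rpl4 at 191 and 248 TPM in pancreas and 507 and 429.7 TPM in liver (log2 fold 0.39, adjusted p = 0.588). The 70 genes with transcripts under 1000 bases had a median of 3.27 and 61 calls, and the 6 longer ones a median of 2.83 and 5 calls, all but Rpl4. Under library totals 50 were still higher in pancreas. With the animal as a block 8 passed, without Rpl13a (adjusted p = 0.115), and without liver 45 or without liver 168 only 1. In endoplasmic reticulum translocation and folding, 15 of 45 genes were higher in pancreas and 5 in liver, at a median of 0.07. Over all genes tested the shares were 18.5% and 22.7%, so that the share in liver was below that of all genes. Small subunits were higher in pancreas, such as Sec61g at 67.1 and 57.8 TPM against 15.1 and 17.7 and Ssr4 at 939.6 and 871 TPM against 124 and 147. The large chaperones Calr and Canx were higher in liver, at log2 folds of -2.10 and -1.44 (block adjusted p = 0.0841 and 0.0890), and Hspa5 was at 69.3 and 111 TPM in pancreas and 293 and 245 TPM in liver (0.07, adjusted p = 0.910). Under library totals this split became 6 higher in pancreas and 15 higher in liver. Without liver 45 no member passed, and without liver 168 only 1 did.

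Nuclear respiratory chain subunits passed for 10 of 74 in pancreas and 13 in liver, at a median of 0.35, both shares below those of all genes tested (18.5% and 22.7%). The calls became 2 and 26 under library totals and 24 and 5 under the upper quartile, and without either liver in turn 0 and 1. The 60 genes under 1000 bases had 10 and 3 calls and a median of 0.68, and the 14 longer ones 0 and 10 and a median of -1.44. In the endoplasmic reticulum list the 14 genes under 1000 bases had 11 and 0 calls and a median of 1.89, the 31 longer ones 4 and 5 and a median of -0.13. Over all genes tested, the 2678 under 1000 bases had a median of 0.84 and the 13667 longer ones -0.12. Among genes at 10 TPM or more in liver and 1 TPM or more in pancreas, the median fell from 1.19 under 500 bases to -1.42 over 4000 bases, where 71.2% were called higher in liver. This filter asks more of liver than of pancreas, which favours calls in liver. Over all genes tested the median fell from 1.66 to -0.25 between the same bins. Over 4000 bases, 25.9% of these were called higher in liver. Against the mean of both livers, medians over all genes went from 1.64 to -0.53 in pancreas 45 and from 1.33 to -0.13 in pancreas 168. Whether RNA integrity or library preparation differed between the tissues was not tested. Aminoacyl tRNA synthetases had 1 call in pancreas, Wars (log2 fold 2.62), and 4 of 20 in liver, below the shares of all genes. They became 1 and 10 under library totals and 4 and 1 under the upper quartile, and none was left without either liver. Proteasome subunits had no call in pancreas and 10 of 31 in liver, against 22.7% of all genes, which became 0 and 20 under library totals and 5 and 6 under the upper quartile. Leaving out liver 45 gave 2 calls in liver, and leaving out liver 168 gave 1. Mitochondrially encoded subunits summed to 53541 and 53623 TPM in liver and 15035 and 15073 TPM in pancreas, and 1 of 13, mt-Nd4l, was called, higher in liver (block adjusted p = 0.0749). The calls in liver numbered 3 under library totals, 12 with limma on log2(TPM + 1), 4 without pancreas 45 and 0 under the upper quartile or without either liver.

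**Figure D4:**
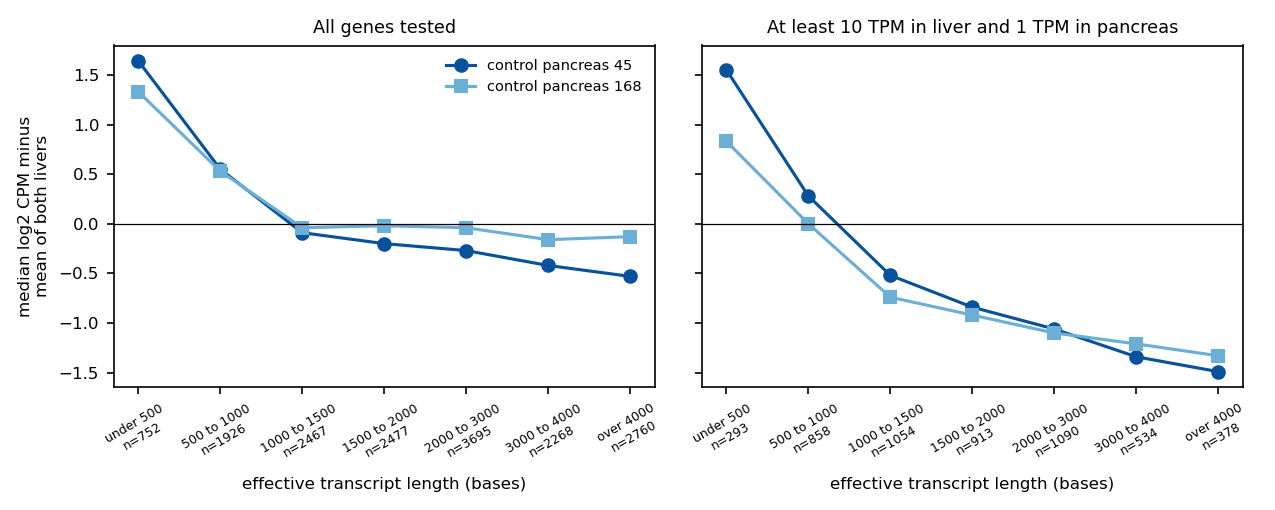
Median log2 CPM of each pancreas minus the mean of both livers (y axis) by effective transcript length in bases (x axis), over all genes tested (left) and over genes at 10 TPM or more in liver and 1 TPM or more in pancreas (right), n being the genes in each bin. Both pancreases go from above 0 in the shortest bin to below 0 in the longest, from 1.55 to -1.49 and from 0.83 to -1.33 in the right panel. The filter of the right panel asks more of liver than of pancreas, which favours values below 0.

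The labelled tissues were checked against cell type markers. Acinar markers summed to 495941 and 494938 TPM in the pancreases and 153 and 82.9 TPM in the livers, with 19 of 20 higher in pancreas. Hepatocyte markers summed to 196361 and 140563 TPM in the livers and 109 and 90.1 TPM in the pancreases, with 12 of 15 higher in liver. All 15 islet markers and 8 of 9 duct markers were higher in pancreas. Under library totals 5 duct markers were higher in pancreas and 1 in liver, and with limma on log2(TPM + 1) 3 and 1. The islet markers had 15 calls in pancreas under library totals and 8 with limma. The acinar sums in liver are 0.0309% and 0.0168% of those of the pancreas of the same mouse. In liver 45, 19 of the 20 acinar markers had a value above 0, and in liver 168 there were 11. Without Cela1 the sums were 89.2 and 4.95 TPM, so that Cela1 alone made up most of the acinar signal of liver 168. In the pancreases the leading hepatocyte transcripts differed, with Alb at 32.7 TPM in pancreas 45 and Cyp2e1 at 30.9 TPM in pancreas 168. The part of these traces in any result above was not tested. With the animal as a block 9 acinar and 7 hepatocyte markers passed. Without liver 45 there were 9 and 0, and without liver 168 there were 4 and 0.

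Immune and fat markers set pancreas 168 apart from pancreas 45. T cell markers summed to 1.06 TPM in pancreas 45 and 57.0 TPM in pancreas 168, with the livers at 8.78 and 6.88 TPM. None of the 11 passed, with 11 higher in pancreas when pancreas 45 was left out and 2 higher in liver when pancreas 168 was left out. B and plasma cell markers summed to 11.8 and 441 TPM in pancreas and 17.1 and 10.6 TPM in liver, and Jchain and Igkc of the 9 were higher in pancreas, a share near the 18.5% of all genes. Igkc, the kappa light chain, was at 7.41 and 235 TPM against 6.02 and 5.61 (block adjusted p = 0.0665). Adipocyte markers summed to 54.3 and 671 TPM in pancreas and 17.6 and 11.3 TPM in liver, and 5 of 6 were higher in pancreas. Without Cfd, which is on this list, the sums were 44.6 and 413 TPM in pancreas and 16.6 and 11.2 TPM in liver, and 4 of 5 were called. Adipoq, the hormone adiponectin, was at 1.94 and 45.4 TPM against 0.208 and 0.0327. The pancreas is bordered by fat and holds lymph nodes, and how much of either was in each piece was not tested. These rises accompany those of Reg3b, Reg3g and Saa1 in pancreas 168 given above. No T cell marker and 0 of the 9 B cell and 0 of the 6 adipocyte markers were called once either liver was left out.

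Several markers of resident macrophages were higher in liver, while most endothelial markers did not pass. Macrophage markers passed for 7 of 12, all higher in liver. Clec4f, which marks Kupffer cells, was at 95.6 and 91.6 TPM against 0.209 and 0.105, and Cd5l at 75.6 and 80.8 TPM against 0.0313 and 0.594. Lyz2, a general myeloid lysozyme, was at 34.3 and 495 TPM in pancreas and 75.2 and 77.0 TPM in liver (adjusted p = 0.0766). Of the endothelial markers, Clec4g, Cdh5 and Kdr were higher in liver, 3 of 10 in all against 22.7% of all genes. Stab2 (adjusted p = 0.0608) and Lyve1 (log2 fold 0.20, adjusted p = 0.862) did not pass. Pecam1 was at 4.50 and 10.1 TPM in pancreas against 11.7 and 7.79, and its call as higher in pancreas depended on the scaling, with a log2 fold of 0.87 on the TMM scale (block adjusted p = 0.0875), a call also under the upper quartile, and -0.15 with no call under library totals. Of 11 stellate cell and fibroblast markers, 7 did not pass, Reln and Lrat were higher in liver and Acta2 and Lum in pancreas, shares no larger than those of all genes, Acta2 at 2.52 and 16.8 TPM with a blocked adjusted p of 0.0637. Under library totals, and again without liver 168, no marker of this list was called in pancreas, and the log2 fold of Lum was 0.41 under library totals against 1.43. Of 8 neutrophil markers 5 were tested, and 2 of these were higher in pancreas, against 18.5% of all genes. They were S100a8 and S100a9, at log2 folds of 3.81 and 4.14. In the pancreases S100a8 was at 2.96 and 14.1 TPM and S100a9 at 3.88 and 22.2 TPM. The other 3 tested, Camp, Elane and Retnlg, did not pass. Elane and the untested Ngp were the only neutrophil markers with a higher mean TPM in liver. Haemoglobin and Alas2 transcripts, from blood, did not pass, although Hbb-bt did with the block (adjusted p = 0.0769, block 0.0435). Upk1b was the only 1 of 5 mesothelial markers that passed (block adjusted p = 0.0811), and with the block only Wt1 did (adjusted p = 0.0505, block 0.0348). No macrophage, endothelial or neutrophil marker was called once either liver was left out.

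**Figure D5:**
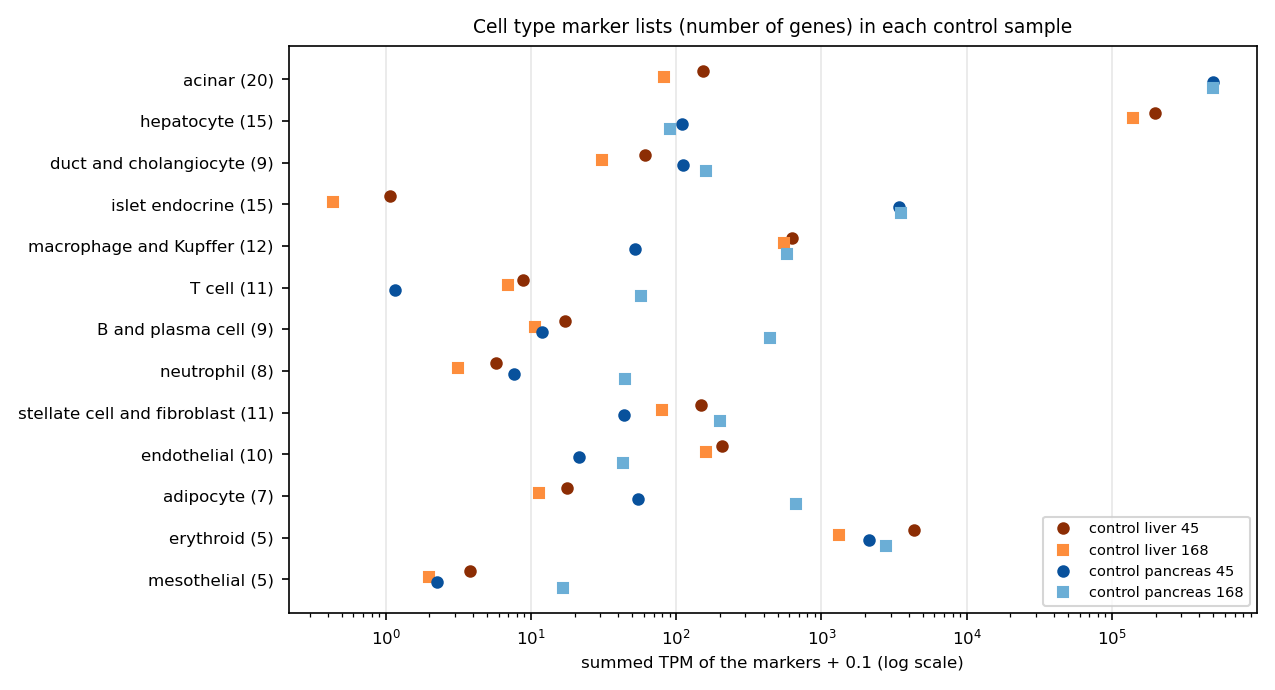
Summed TPM + 0.1 of the markers of 13 cell types on a log axis, with 1 point for each control sample and the number of genes in brackets. Acinar sums are at least 494938 TPM in the pancreases and at most 153 TPM in the livers, and T cell, B cell and adipocyte sums are higher in pancreas 168 (57.0, 441 and 671 TPM) than in pancreas 45 (1.06, 11.8 and 54.3 TPM).

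The 2 mice differed within each tissue, where no test is possible with 1 sample each. Among genes at 10 TPM or more, 57 were at least 4-fold higher in liver 168 and 55 in liver 45, of 6070 (1.85%). In pancreas 141 were at least 4-fold higher in mouse 168 and 25 in mouse 45, of 2742 (6.05%). The Y-linked genes Ddx3y and Eif2s3y were at 12.1 and 17.7 TPM in liver 168 and at 4.40 and 4.94 TPM in pancreas 168, and under 0.1 TPM in both tissues of mouse 45. Some genes of mouse liver known to depend on sex differed in the same split. Cyp4a12a, Elovl3 and Mup20, higher in male mice, were at 0.559, 3.26 and 165 TPM in liver 45 and at 303, 194 and 5790 TPM in liver 168. Cyp2b9, Cyp3a41a and Sult3a1, higher in female mice, were at 367, 1346 and 80.0 TPM in liver 45 and at 0.937, 0.0775 and 0 TPM in liver 168. Others differed less, such as Slco1a1, at 175 and 162 TPM, and Cyp2c40, at 248 and 136 TPM. Sex and any other difference between these mice cannot be told apart.

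The tissue difference of the controls was set against that of the A3B mice, 6 livers and 6 pancreases. Their titles read Sample where those of the controls read Control. The labels give them 625 ppm doxycycline for 10 days, the same as the controls. The labels give A3B + CAGS-rtTA for these samples except pancreases 44 and 137, which they give as A3B alone although the livers of the same mice carry both. Which cells of either organ expressed the transgene was not analysed here. By edgeR's test of the interaction, the difference itself differed for 2369 of 19927 genes (11.9%), with the ratio of pancreas to liver higher in A3B mice for 1368 (6.87%) and lower for 1001 (5.02%). The log2 interaction was -9.11 for Serpini2, -8.25 for Spink1, -6.75 for Tff2, -5.22 for Cela1 and -9.24 for each of Amy2a2, Amy2a3 and Amy2a4. Among liver genes it was 9.83 for Cyp1a2, 8.43 for Hsd17b6, 5.67 for Elovl2, 4.02 for Apoe and 3.67 for Trf. These genes were chosen for their difference in the same control samples, which favours these signs, and among other named genes Spp1 (4.24) and Krt7 (2.48), higher in pancreas, and mt-Nd4l (-2.87), higher in liver, had the opposite ones. By list, cytosolic ribosomal proteins were lower for 42 of 76 and higher for none, with a median tissue difference of 3.16 in controls and 0.99 in A3B mice. Mitochondrially encoded subunits were lower for 12 of 13, from a median of -0.30 to -4.16, and nuclear respiratory chain subunits for 37 of 74. Mitochondrially encoded subunits made 29.2% of TPM in A3B liver 48 and 15.6% in A3B liver 49, against 5.06% to 8.69% in the other 4 A3B livers and 5.35% and 5.36% in the control livers. With both of these livers left out, a choice made after these values were seen, 12 of 13 were lower, at a median interaction of -2.96 in place of -4.00. Under the animal block the calls numbered 3 of the 13, 5 ribosomal proteins, 23 respiratory chain subunits and 11 complement genes. These counts depended on the scaling, since under library totals 2 of the 13 were lower, 1 ribosomal protein was lower and 1 higher, 2 respiratory chain subunits were lower and 18 higher, and 23 complement genes were higher. Without control liver 45, control liver 168 or control pancreas 45, the subunits encoded in mitochondria had 1, 0 and 1 calls, ribosomal proteins 0, 2 and 0, respiratory chain subunits 1, 11 and 4 and complement genes 6, 5 and 4. Complement genes were higher for 13 of 25, from -6.35 to -2.72. Transcripts of digestive proteases had 2 of 17 members called, and their median went from 14.69 to 9.76. There was no call without control liver 45 or without control liver 168, and the median interaction of -4.99 was -3.18 under library totals and -9.75 without control liver 45. Leaving out liver 45, liver 168 or pancreas 45 of the controls left 546, 696 and 710 genes.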

How the data were processed

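Whole-organ RNA was sequenced as stranded 100-nt paired-end libraries. The authors quantified reads against mouse transcripts (GRCm38, mm10) with kallisto and deposited estimated counts and TPM per transcript and sample. Here 116728 of 119414 transcripts were matched to 35928 gene symbols, values were summed per gene, and estimated counts were rounded. Between 0.225% and 1.46% of counts per control library matched no gene. A table of TPM from another pipeline was not used. The 4 control samples, grouped by their titles, were fitted in edgeR 4.0.16 (R 4.3.3; filterByExpr, TMM factors of 1.48, 1.46, 0.489 and 0.944 for liver 45, liver 168, pancreas 45 and pancreas 168, robust quasi-likelihood test, two-sided, 2 residual degrees of freedom), with Benjamini-Hochberg adjusted p-values over 16345 genes and a threshold of 0.05. SE is the absolute log2 fold divided by the square root of F. The common biological coefficient of variation was 0.469.

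Where a tissue had no count in either library, a fold is a lower bound against 3 counts over the group, and with 1 to 3 counts it is a ratio with an exact 95% counting interval, which covers counting error only. For single values, 2 against 2 cannot give an exact two-sided p below 0.333, so none was computed. Tissues with the same number came from the same mouse, and the correlation across 16345 genes of the difference between the mice in liver and in pancreas was 0.00693 (Pearson r, genes not being replicates). Fits with the animal as a block, other scalings, filters, DESeq2 1.42.0, limma 3.58.1 on log2(TPM + 1), a length offset and each library left out were run as alternatives. In simulated counts for this comparison (16345 genes, 200 changed 4-fold) edgeR recovered 99% at a dispersion of 0.05 and 0.5% at 0.25.

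Named genes were the 15 largest changes in each direction at 100 TPM or more, the 10 most abundant genes of each tissue, up to 4 leading members of each list and those called against its side, the isoenzyme pairs and the markers. Other list members are named for their known role and were chosen after their values were seen, as were the genes that differ between the mice. The samples, lists and markers were chosen with earlier results of these data known. Promoters came from RefSeq. Near-identical copies share reads, and the human A3B transgene was not analysed here. Some members of these lists and some isoenzyme pairs are not reported here.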

Additional observations from a re-analysis of the deposited data

Results flagged for a closer look

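The tissue difference in controls differed from that in A3B mice, by edgeR's interaction test over 16 samples, for 2369 of 19927 genes, against 5746 at an unadjusted p under 0.05, and for 1615 with the animal as a block. Among pancreas genes the interaction (log2, A3B mice minus controls) was -9.16 for 1810018F18Rik, -9.24 for each of Amy2a2, Amy2a3 and Amy2a4, -8.30 for Amy2b, -5.22 for Cela1, -9.11 for Serpini2, -8.25 for Spink1, -6.75 for Tff2 and -7.46 for Tmed11. Among liver genes it was 4.02 for Apoe, 5.51 for Cpn2, 9.83 for Cyp1a2, 5.67 for Elovl2, 8.43 for Hsd17b6, 10.66 for Serpina4-ps1 and 3.67 for Trf. These genes were chosen for their difference in the same controls, which favours these signs. The signs were the opposite for Spp1 (4.24) and Krt7 (2.48), higher in pancreas, and for mt-Nd4l (-2.87), higher in liver. No explanation of these differences was tested.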

How the results depend on the processing

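Genes higher in pancreas numbered 1226 with scaling by library totals, 776 with limma on log2(TPM + 1), 1824 with the replicate block and 4720 with upper quartile scaling, and 391 to 4218 when 1 library was left out. Genes higher in liver numbered 6685 with limma and 2218 with upper quartile scaling, and 965 to 4447 when 1 library was left out. Interaction calls numbered 3753 with DESeq2 and 8071 with library totals, 3846 with A3B livers 48 and 49 left out, chosen after seeing the data, and 546 to 3408 when 1 library was left out. Counting genes called in the first fit or in the alternative, the direction turned under limma for Hba-a1 (-1.13), Krt18 (-1.43), Lyve1 (-1.30), Pecam1 (-0.44), Plvap (-1.24), Pygb (-0.14) and mt-Co3 (-0.97), under library totals for Pecam1 (-0.15), and without pancreas 168 for Cd4 and Trac. With each library left out in turn Cd4 ran from -3.29 to 2.17 and Trac from -8.33 to 2.86. Others changed sign with no call in either fit, such as Krt18 (-1.10), P4hb (-0.87), Xbp1 (-0.43) and Mat2a (-0.17) under library totals. The cause was not tested. Among the genes chosen for naming, the animal block ended 50 calls, added 2 and left 233 as they were, and the report gives the blocked value for those of them that it describes. In simulated data at a dispersion of 0.25, edgeR recovered 0.5% of 4-fold changes and DESeq2 24%, and the effect of read depth on recovery was not tested.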
